A study of Mus musculus with 6 samples.

Results

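Autophagy genes and a small set of lysosome genes were followed in mouse epidermis by RNA sequencing. The set was a fixed list of 38 symbols covering the autophagy machinery from its starting kinases to the lysosome. Of these, 37 were measured among 49386 genes, and Map1lc3b was not analysed here. Libraries 263, 265 and 266 carried the genotype label Rictor -/- and libraries 261, 262 and 264 the label Control, all from C57BL/6 embryos at E19.5, late in gestation. The Rictor protein is what makes an mTOR kinase into complex 2, which acts on AKT, and the study compared mRNA levels of epidermis with and without it. The titles read ricEKO and ctrl. The sources used here do not give the promoter that drives any recombinase, the allele, whether animals were pooled, or the sex of the embryos.

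Values are FPKM, in which fragments are divided by the length of the transcript and by the library total, so levels of different genes can be set side by side. Rictor itself stood at 6.83, 7.04 and 6.86 FPKM in the libraries labelled Rictor knockout, against 5.63, 6.02 and 4.37 FPKM in the controls. It was therefore not lower under the knockout label, and since a whole-gene value keeps reads from exons outside a deletion, it does not check the labels. Every direction below is that of the knockout-labelled libraries. The keratinocyte keratins Krt1, Krt5, Krt10 and Krt14 were abundant in every library. With 2 more keratinocyte markers they summed to 35343 to 36633 FPKM in the knockout-labelled libraries, against 33067 to 33974 FPKM in the controls, and Krt5 and Krt14 rose. The 4 endothelial markers summed to 0.673 to 0.936 FPKM in the knockout-labelled libraries, against 0.459 to 0.785 FPKM in the controls. Nothing in the labels says that each library came from its own animal, so p-values measure the spread between these libraries, part of which may be technical.

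Autophagy encloses cytoplasm in a double membrane, the autophagosome, which fuses with the lysosome so that its content is digested. The ULK1 kinase complex starts the process, a lipid kinase complex around Beclin 1 marks the membrane with PI3P, and ATG2, ATG9 and WIPI proteins help it to grow. A pair of ubiquitin-like conjugation reactions then attaches Atg8 proteins, the LC3 and GABARAP families, to the membrane lipid phosphatidylethanolamine. TFEB and TFE3 are transcription factors that activate autophagy and lysosome genes, and mTOR complex 1 holds them in the cytoplasm when nutrients are plentiful. In epidermis, autophagy and lysosomal enzymes take part in the breakdown of organelles as keratinocytes cornify.

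The measured genes were mostly lower in the knockout-labelled libraries, by modest amounts. By limma's test over all 13500 tested genes, 10 of the 37 fell and 0 rose at an adjusted p under 0.05. Over all tested genes 15.6% fell and 7.91% rose. Those that fell were the Atg8 family genes Map1lc3a, Gabarap, Gabarapl1 and Gabarapl2, the conjugation genes Atg10 and Atg12, the lipid kinase subunit Atg14, the PI3P effector Wipi2 and the lysosomal genes Lamp2 and Hexa. Among the 27 genes that did not pass, 10 had an unadjusted p under 0.05. The difference was below 0 for 32 of the 37, against 58.8% of all tested genes. The median of the 37 was -0.17 on the log2(FPKM + 1) scale, on which all differences are given, against -0.06 over all tested genes, and the median change of the mean FPKM was -12.2%. For 21 of them every knockout-labelled library lay below every control, against 29.2% of all tested genes, and for 1, Tfe3, every one lay above, against 16.6%. The excess over all genes depended on the libraries: without 263, 2 of the 37 fell (5.41%, against 7.30% of all tested genes), and without 266, 3 fell (8.11%, against 7.42%). All 37 averaged over 1 FPKM in both groups, so none entered the test through a single group.

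**Figure D1:**
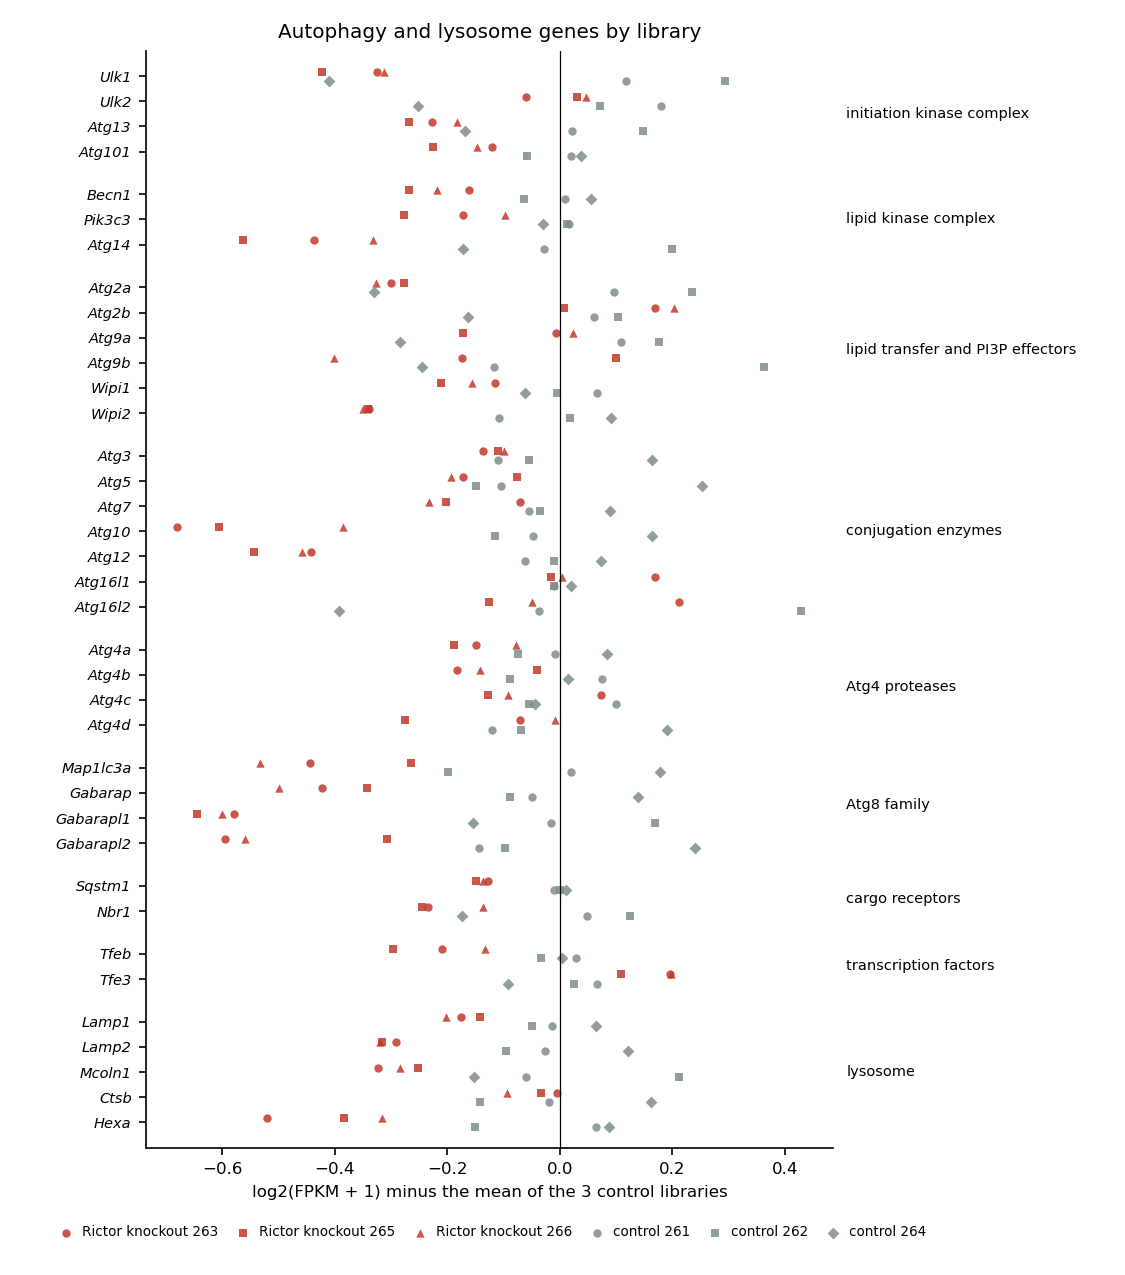
Each row is a gene and each symbol a library, placed at its log2(FPKM + 1) minus the mean of the 3 controls, with knockout-labelled libraries in red and controls in grey. For the 4 Atg8 family genes, Atg10 and Atg12 every red symbol lies left of every grey one, though only narrowly for Map1lc3a. Control 264 lies among or near the red symbols for Ulk1, Atg2a and Nbr1.

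Against 15.6% of all tested genes, in the Atg8 family 4 of 4 measured members fell, more than in any other role group here. Their proteins coat the growing membrane and bind the receptors that bring cargo to it. Gabarapl1 (ENSMUSG00000030161, chromosome 6, 129533160 to 129542346, plus strand) was at 29.3, 28.0 and 28.9 FPKM in the knockout-labelled libraries, against 43.8, 49.9 and 39.7 FPKM in the controls. The groups lay far apart relative to their spread, and the mean fell by 35.4%, a log2 difference of -0.61 ± 0.09 (SE; limma, adjusted p = 0.00640). Gabarapl1 had the greatest difference of the 37 genes on the log2(FPKM + 1) scale as deposited, though the mean of Atg10 fell by more, and it was 1 of 2, with Atg12, that passed in all 19 alternative analyses. Gabarap (ENSMUSG00000018567, chromosome 11, 69991143 to 69994951, plus strand), the most abundant member, was at 166, 175 and 157 FPKM in the knockout-labelled libraries, against 215, 209 and 245 FPKM in the controls. Its mean fell by 25.5% (log2 -0.42 ± 0.09, limma adjusted p = 0.0164).

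Gabarapl2 (ENSMUSG00000031950, chromosome 8, 111940703 to 111953612, plus strand), also known as GATE-16, was at 74.3, 91.0 and 76.2 FPKM in the knockout-labelled libraries, against 102, 105 and 133 FPKM in the controls. The mean fell by 29.1% (log2 -0.49 ± 0.13, limma adjusted p = 0.0367), with control 264 the highest of the 6. Map1lc3a (ENSMUSG00000027602, chromosome 2, 155276297 to 155278073, plus strand), which encodes LC3A, was at 96.2, 109 and 90.3 FPKM in the knockout-labelled libraries, against 133, 114 and 149 FPKM in the controls. Its groups came close, at 109 and 114 FPKM, and the mean fell by 25.3% (log2 -0.41 ± 0.12, limma adjusted p = 0.0454). Its call held only without control 262 among the fits that left out 1 library, and was lost in the other 5 (limma adjusted p from 0.0578 to 0.144). The call of Gabarapl2 was lost without 263, 266, 261 or 262 (0.0541 to 0.119), and that of Gabarap without 263 or 266 (0.0629 and 0.0683).

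The 4 genes summed to 366, 403 and 353 FPKM in the knockout-labelled libraries, against 494, 479 and 567 FPKM in the controls. The summed level was thus lower in 3 of 3 knockout-labelled libraries (two-sided exact permutation test, p = 0.1, the smallest that 3 against 3 libraries can give). This sum and 13 shares of paralogs were compared in all, and no Benjamini-Hochberg adjusted p was under 0.28. Gabarap held 44.5% ± 0.959 of it in the knockout-labelled libraries and 43.5% ± 0.242 in the controls (SD, n = 3 each; exact permutation p = 0.3). Gabarapl1 held 7.71% ± 0.679 in the knockout-labelled libraries and 8.77% ± 1.71 in the controls (exact permutation p = 0.4). The shares of Gabarapl2 and Map1lc3a overlapped between groups too (exact permutation p = 0.6 each), and a share does not change when a library is rescaled.

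**Figure D2:**
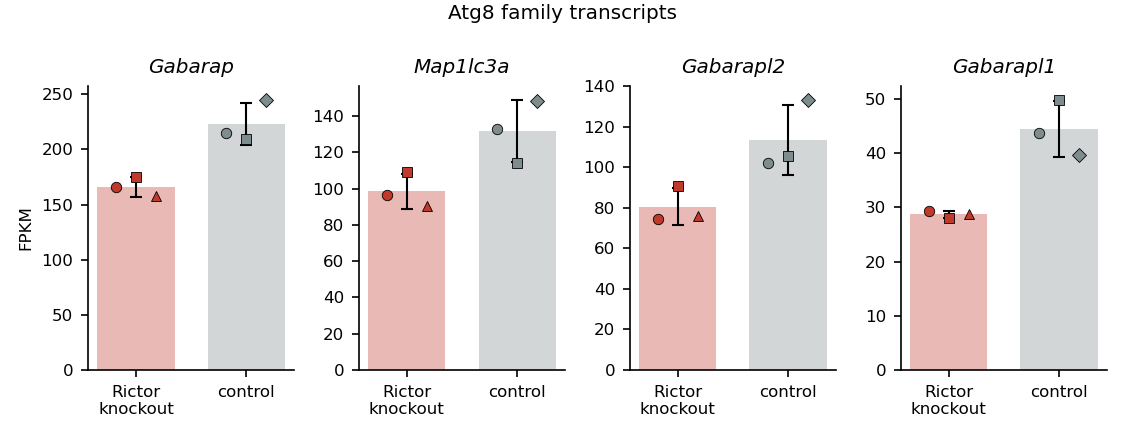
FPKM of the 4 measured Atg8 family genes, each panel on its own axis from 0, with bars at the mean of 3 libraries, error bars of 1 SD and 1 symbol per library. In every panel the 3 knockout-labelled libraries, on the left, lie below the 3 controls.

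These 4 genes have a short exonic length, which sums the exons of all annotated transcripts of a gene. Genes of short exonic length as a class were lower in the knockout-labelled libraries. When all tested genes were split into 5 equal bins by exonic length, the median log2 difference was -0.17 in the shortest bin, up to 1958 bases, and 0.03 in the longest, from 7186 bases. Of 8 autophagy and lysosome genes under 2500 bases 6 fell, with a median of -0.42, and of the 29 longer ones 4 fell, with a median of -0.16. Across the 37 genes Spearman's rho between exonic length and log2 difference was 0.37, and 0.15 after an adjustment that smoothed length and GC content out of each library, as a description over genes that share 6 libraries. After that adjustment Gabarapl1 (log2 -0.45, limma adjusted p = 0.0345), Gabarap (-0.26, 0.0311) and Gabarapl2 (-0.36, 0.0468) still passed. Map1lc3a did not (-0.28, 0.0888). In all 7 of 37 fell and 0 rose after it, against 11.9% and 12.4% of all tested genes (24.3% either way).

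**Figure D3:**
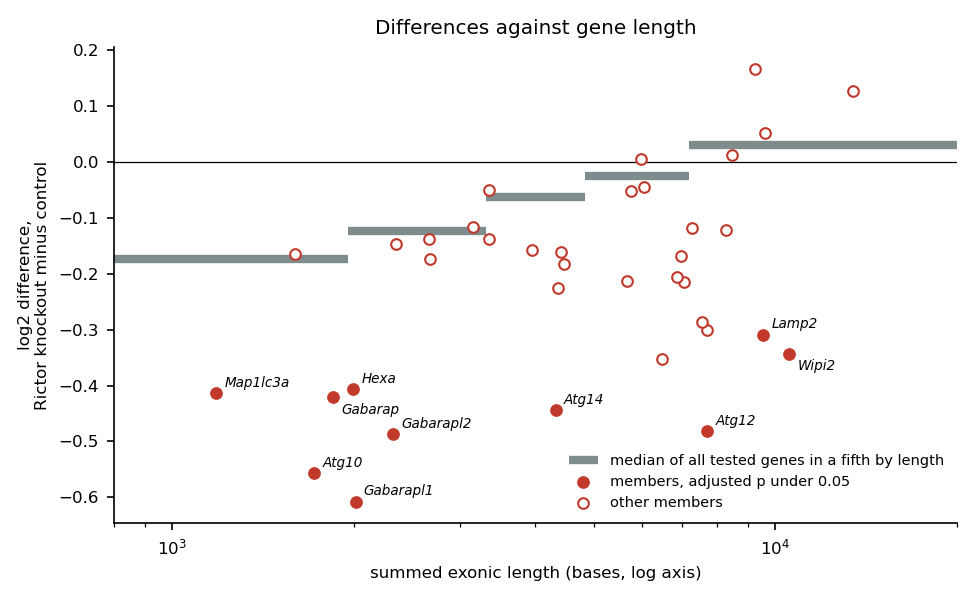
Log2 difference, knockout-labelled minus control, against summed exonic length on a log axis. Circles are the 37 genes, filled where the adjusted p is under 0.05, and grey bars are the medians of all tested genes in 5 bins by length, running from -0.17 to 0.03. The filled circles lie below the grey bar at their own length.

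Among the genes for attaching Atg8 proteins to lipid, those for ATG12 and for the enzyme that conjugates it fell. ATG7 is the activating enzyme of both reactions, ATG3 passes Atg8 proteins on, and ATG10 joins the ubiquitin-like ATG12 to ATG5, which works with ATG16L1. Of 7 such genes 2 fell and 0 rose, against 15.6% and 7.91% of all tested genes. Atg12 (ENSMUSG00000032905) was at 15.4, 14.3 and 15.2 FPKM in the knockout-labelled libraries, against 20.3, 21.1 and 22.4 FPKM in the controls. Its groups were narrow and well apart, the mean fell by 29.7% (log2 -0.48 ± 0.07, limma adjusted p = 0.00519), and the length and GC adjustment left the difference at -0.48. Atg10 (ENSMUSG00000021619, chromosome 13, 90935356 to 91223968, minus strand) was at 3.11, 3.33 and 4.04 FPKM in the knockout-labelled libraries, against 5.37, 5.08 and 6.37 FPKM in the controls. All 3 knockout-labelled values were lower than all 3 controls, and the mean fell by 37.7% (log2 -0.56 ± 0.11, limma adjusted p = 0.0161). Its call was lost without 263 or without 265, at adjusted p-values up to 0.0599.

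The other 5 did not pass, and 0 of them had an unadjusted p under 0.05. Atg5, whose protein receives ATG12, was at 16, 17.2 and 15.8 FPKM in the knockout-labelled libraries, against 16.8, 16.3 and 21.9 FPKM in the controls. Only control 264 stood apart, and the log2 difference of -0.15 ± 0.11 became -0.02 without it. Atg3 had a like pattern, at 21.6, 22 and 22.2 FPKM in the knockout-labelled libraries, against 22, 22.9 and 26.8 FPKM in the controls (log2 -0.12 ± 0.08, limma adjusted p = 0.348). For Atg7 the values were 13.8, 12.5 and 12.2 FPKM in the knockout-labelled libraries, against 13.9, 14.1 and 15.5 FPKM in the controls (log2 -0.17 ± 0.07, limma adjusted p = 0.143). Atg16l1 averaged 9.72 ± 0.774 FPKM in the knockout-labelled libraries and 9.33 ± 0.128 FPKM in the controls (SD, n = 3 each), and its low paralog Atg16l2 averaged 2.26 ± 0.413 FPKM in the knockout-labelled libraries and 2.31 ± 0.952 FPKM in the controls. For both the groups overlapped.

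The Atg4 proteases trim Atg8 proteins before conjugation and release them from membranes afterwards. Of 4 genes 0 passed (limma; none had an unadjusted p under 0.05), and their log2 differences ran from -0.05 to -0.14, with the sign of Atg4c turned by quantile scaling and by the length and GC adjustment. Atg4b and Atg4d were the main forms. Atg4b averaged 27.1 ± 1.44 FPKM in the knockout-labelled libraries and 29.5 ± 1.73 FPKM in the controls, and Atg4d averaged 23.8 ± 2.35 FPKM in the knockout-labelled libraries and 26 ± 3.19 FPKM in the controls. Atg4a and Atg4c were at most 5.19 FPKM in every library. Of the summed Atg4 FPKM, Atg4a held 7.49% ± 0.166 in the knockout-labelled libraries and 7.71% ± 0.0342 in the controls. These shares did not overlap, but narrowly, at 7.67% in 266 and 7.68% in control 262 (exact permutation p = 0.1). Those of Atg4c and Atg4d overlapped. Atg4b held 47.0% ± 3.44 of the summed Atg4 FPKM in the knockout-labelled libraries and 47.0% ± 2.72 in the controls (exact permutation p = 1).

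In the kinase complex that starts autophagy 0 of 4 genes passed limma's test and 2, Atg13 and Atg101, had an unadjusted p under 0.05. For the kinase gene control 264 lay apart from the other controls. Ulk1 (ENSMUSG00000029512, chromosome 5, 110784488 to 110810097, minus strand) was at 21.6, 20.2 and 21.9 FPKM in the knockout-labelled libraries, against 29.8, 33.8 and 20.3 FPKM in the controls. The knockout-labelled values were close together, while control 264 lay among them and the other controls well above. The log2 difference was -0.35 ± 0.17 (limma adjusted p = 0.181), and without control 264 it was -0.56 (limma adjusted p = 0.00776). Atg13, an adaptor of the kinase, was at 28.4, 27.6 and 29.4 FPKM in the knockout-labelled libraries, against 34.0, 37.2 and 29.7 FPKM in the controls, and passed only in fits that left out control 264 or weighted libraries (log2 -0.23 ± 0.09 with all libraries, limma adjusted p = 0.114). The paralog Ulk2 averaged 7.99 ± 0.358 FPKM in the knockout-labelled libraries and 8.02 ± 1.35 FPKM in the controls. Ulk1 held 74.1%, 71.2% and 72.6% of the summed Ulk1 and Ulk2 FPKM in the knockout-labelled libraries, against 76.5%, 80.1% and 75.7% in the controls. The shares did not overlap, also with control 264 (exact permutation p = 0.1, the smallest possible). Atg101, which stabilises ATG13, differed by -0.16 ± 0.06 (limma adjusted p = 0.1), and by -0.03 after the length and GC adjustment.

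Of the lipid kinase complex, 1 of 3 genes fell, against 15.6% of all tested genes. Atg14 (ENSMUSG00000037526, chromosome 14, 47540893 to 47570649, minus strand), the subunit that directs the complex to autophagosome formation, was at 6.18, 5.58 and 6.72 FPKM in the knockout-labelled libraries, against 8.54, 10.2 and 7.63 FPKM in the controls. The groups did not overlap, and the mean fell by 29.8% (log2 -0.44 ± 0.11, limma adjusted p = 0.0326). The call did not hold after the length and GC adjustment (log2 -0.38, limma adjusted p = 0.0618) or after trimmed mean scaling (0.0613). It held without control 264 and was lost when any other library was left out (limma adjusted p from 0.0601 to 0.101). Becn1, which encodes Beclin 1, was at 67.0, 62.2 and 64.4 FPKM in the knockout-labelled libraries, against 75.5, 71.7 and 78.0 FPKM in the controls, just short of the threshold (log2 -0.22 ± 0.06, limma adjusted p = 0.0523). Becn1 shares 43.9% of its exonic bases with Cntd1 on the opposite strand, and the sources do not say whether counting used strand. In all 10 of the 37 genes share exonic bases with a coding gene on the opposite strand, among them Atg4d (19.3%), Sqstm1 (17.3%), Hexa and Ctsb (12.8% each) and Lamp1 (9.3%). Pik3c3, the catalytic subunit VPS34, averaged 14.9 ± 0.983 FPKM in the knockout-labelled libraries and 17.0 ± 0.323 FPKM in the controls (log2 -0.18 ± 0.07, limma adjusted p = 0.0934).

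Among the 6 genes of membrane growth 1 fell, near the 15.6% of all tested genes that fell. Wipi2 (ENSMUSG00000029578, chromosome 5, 142627698 to 142670588, plus strand), which reads PI3P and recruits ATG16L1, was at 28.5, 28.4 and 28.2 FPKM in the knockout-labelled libraries, against 33.6, 36.7 and 38.7 FPKM in the controls. The mean fell by 21.9% (log2 -0.34 ± 0.07, limma adjusted p = 0.0158), and this long gene kept its call after the length and GC adjustment (-0.35, 0.0326). It lost it without 263, 265 or 266 (limma adjusted p from 0.0538 to 0.0631). Its paralog Wipi1 averaged 17.3 ± 0.6 FPKM in the knockout-labelled libraries and 19.4 ± 0.903 FPKM in the controls (log2 -0.16 ± 0.06, limma adjusted p = 0.110). The genes of the lipid transfer proteins ATG2A and ATG2B had differences of opposite sign. Atg2a was at 10.4, 10.6 and 10.2 FPKM in the knockout-labelled libraries, against 14, 15.5 and 10.1 FPKM in the controls. Atg2b was at 8.41, 7.41 and 8.63 FPKM in the knockout-labelled libraries, against 7.73, 7.98 and 6.47 FPKM in the controls. Neither passed on its own with all libraries at equal weight (limma adjusted p = 0.167 and 0.371), while Atg2a passed in the fit with array weights. Atg2a held 56.0% ± 2.44 of their sum in the knockout-labelled libraries and 63.8% ± 2.52 in the controls, a share that did not overlap between groups (exact permutation p = 0.1). The lipid scramblase genes Atg9a and Atg9b had overlapping groups, with log2 differences of -0.05 ± 0.13 and -0.16 ± 0.19, and median and trimmed mean scaling turned the sign of Atg9a.

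**Figure D4:**
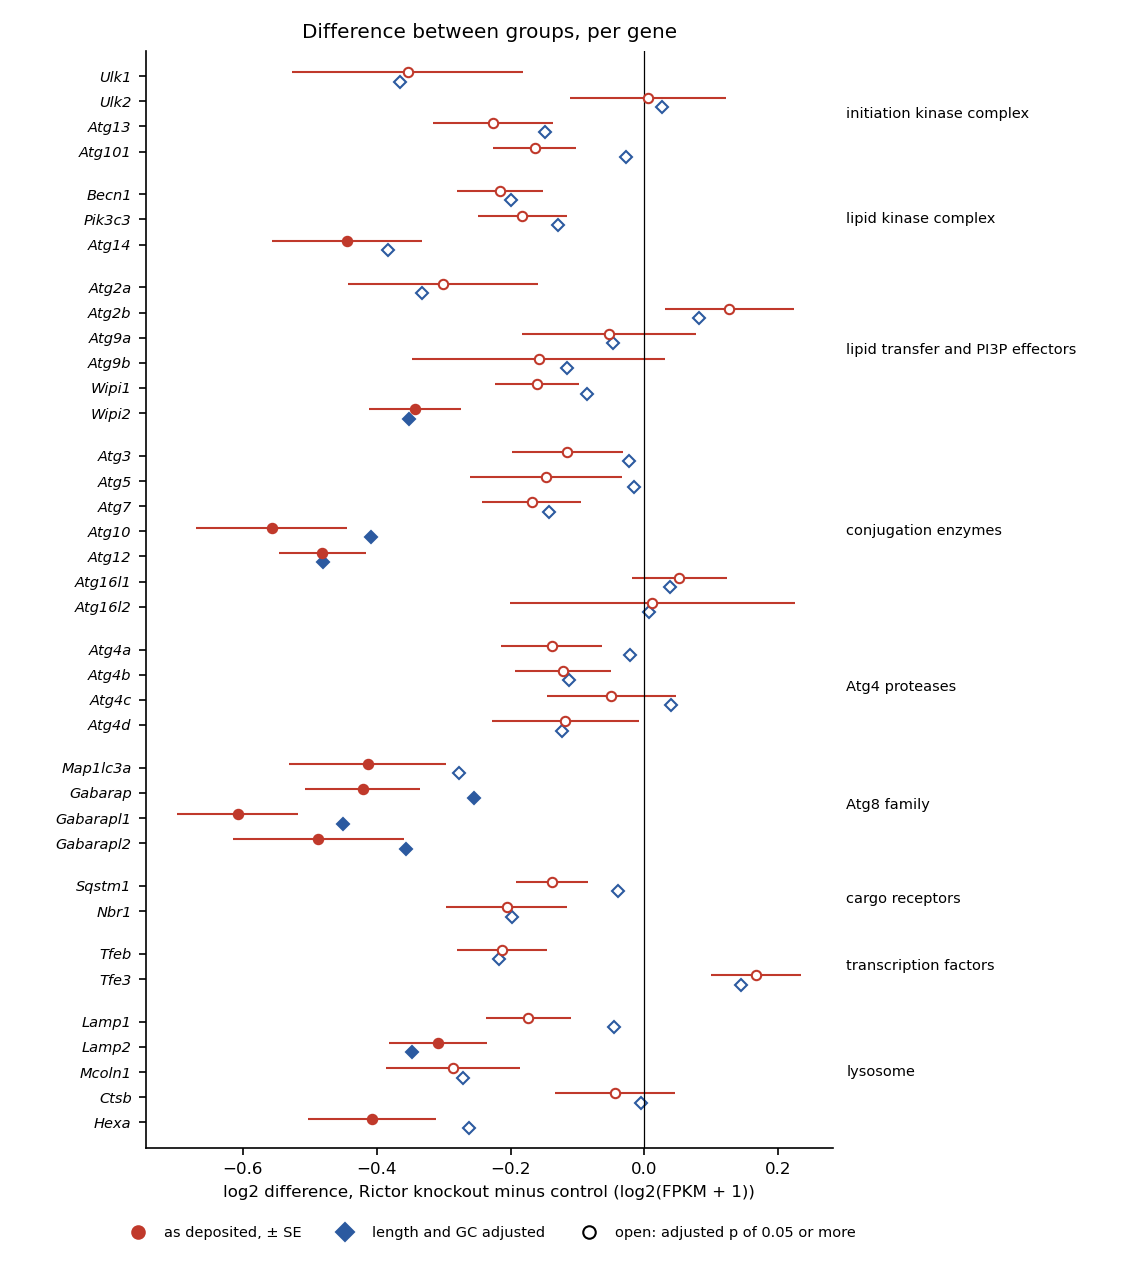
Log2 difference, knockout-labelled minus control, for each gene as deposited (red circles with SE) and after the length and GC adjustment (blue diamonds), filled where the adjusted p is under 0.05. As deposited 10 symbols are filled and after the adjustment 7, all of them left of 0.

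Neither of the 2 cargo receptors passed with all libraries at equal weight. Sqstm1, which encodes p62, a receptor for ubiquitinated cargo that is itself degraded by autophagy, was at 74.1, 72.9 and 73.6 FPKM in the knockout-labelled libraries, against 80.4, 81.0 and 81.6 FPKM in the controls. Each group spanned little over 1 FPKM, yet its -0.14 ± 0.05 missed the threshold (limma adjusted p = 0.110), and after the length and GC adjustment it was -0.04 (0.586). Nbr1, a related receptor, was at 37.2, 37.0 and 39.9 FPKM in the knockout-labelled libraries, against 45.5, 48.1 and 38.9 FPKM in the controls. Control 264 again lay among the knockout-labelled values, and without it Nbr1 passed (log2 -0.29, limma adjusted p = 0.0186).

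The transcription factors TFEB and TFE3 differed in opposite directions, and neither passed. Tfeb (ENSMUSG00000023990) was at 8.37, 7.82 and 8.88 FPKM in the knockout-labelled libraries, against 10.1, 9.58 and 9.87 FPKM in the controls (log2 -0.21 ± 0.07, limma adjusted p = 0.0613). Tfe3 (ENSMUSG00000000134) was at 21.2, 19.9 and 21.2 FPKM in the knockout-labelled libraries, against 19.3, 18.7 and 17.2 FPKM in the controls (log2 0.17 ± 0.07, limma adjusted p = 0.118). In both genes the groups did not overlap. Their relative Mitf averaged 10.3 ± 1.93 FPKM in the knockout-labelled libraries and 11.9 ± 1.19 FPKM in the controls (limma adjusted p = 0.336), and Tfec was under the level tested. The activity of these factors is set largely by their place in the cell, which mRNA does not measure.

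TFEB and TFE3 bind E-boxes, the letters CACGTG, which read the same on both strands. RefSeq promoter windows on GRCm38.p6, from 250 bases before to 50 after the start, matched 31 of the 37 genes, and 6 of these held an E-box (19.4%), namely Atg3, Atg5, Atg7, Atg14, Lamp1 and Mcoln1. The same letters were in the windows of 8.09% of all 27025 genes with a window and of 11.8% of the tested ones. Of the 8 genes with a window that fell, only Atg14 held one, which crosses its start, and 0 of the 8 held one wholly before it. The longer palindrome TCACGTGA, which contains the E-box, was in the windows of Atg3 and Mcoln1, and of 1.12% of all genes and 2.28% of the tested ones. The stretches around these letters are shown because Lamp1 and Mcoln1 carry several, with the E-box in capitals, 5′ to 3′ on the strand of the gene, and the last line gives the bases just before the RefSeq start of Gabarapl1, for which no E-box was found in this window. Some RefSeq starts differ from the GENCODE gene ends used for the other coordinates, lying inside the GENCODE gene by 32 bases in Gabarapl1, 44 in Atg3, 62 in Mcoln1, 2215 in Atg14 and 27999 in Atg7.
Lamp1, chr8:13159080-13159160, plus strand: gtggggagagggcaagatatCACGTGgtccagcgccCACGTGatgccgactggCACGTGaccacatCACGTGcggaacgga
Mcoln1, chr8:3500428-3500499, plus strand: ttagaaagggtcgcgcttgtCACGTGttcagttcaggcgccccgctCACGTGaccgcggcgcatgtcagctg
Atg3, chr16:45158715-45158783, plus strand: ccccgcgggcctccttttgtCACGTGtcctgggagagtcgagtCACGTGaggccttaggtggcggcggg
Atg7, chr6:114670944-114670989, plus strand: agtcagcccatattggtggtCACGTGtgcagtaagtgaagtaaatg
Atg5, chr10:44268305-44268338, plus strand: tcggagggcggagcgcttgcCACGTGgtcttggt
Atg14, chr14:47568430-47568455, minus strand: cctggataaaaacaaaatccCACGTG
Gabarapl1, chr6:129533112-129533191, plus strand: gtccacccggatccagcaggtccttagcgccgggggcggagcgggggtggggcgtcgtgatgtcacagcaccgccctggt

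Lamp1 held 4 E-boxes between 61 and 15 bases before its start, and Mcoln1 and Atg3 held 2 each. None of these 3 genes passed the test with all libraries at equal weight. A match is a description of the letters and not of binding.

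Of the 5 lysosome genes 2 fell and 0 rose, against 15.6% and 7.91% of all tested genes. LAMP1 and LAMP2 are the main glycoproteins of the lysosomal membrane. Lamp2 (ENSMUSG00000016534, chromosome X, 38401357 to 38456454, minus strand), whose protein takes part in fusion with autophagosomes, was at 82.9, 81.4 and 81.3 FPKM in the knockout-labelled libraries, against 99.8, 95.1 and 111 FPKM in the controls. The mean fell by 19.6% (log2 -0.31 ± 0.07, limma adjusted p = 0.0267). After the length and GC adjustment the difference was -0.35 (0.0186), and without 263, 265, 266 or 261 the call was lost (0.0695 to 0.0952). For this X-linked gene a term for sex also ended the call (limma adjusted p = 0.0770). Lamp1 (ENSMUSG00000031447, chromosome 8, 13159161 to 13175338, plus strand) was at 186, 190 and 182 FPKM in the knockout-labelled libraries, against 208, 203 and 219 FPKM in the controls. The groups did not overlap, but its difference of -0.17 ± 0.06 did not pass (limma adjusted p = 0.0951) and was -0.05 after the adjustment. Lamp1 held 69.4% ± 0.499 of the pair's sum in the knockout-labelled libraries and 67.4% ± 0.814 in the controls, again without overlap (exact permutation p = 0.1).

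Hexa (ENSMUSG00000025232, chromosome 9, 59539540 to 59565109, plus strand), the alpha subunit of the ganglioside-cleaving beta-hexosaminidase, was at 3.99, 4.5 and 4.75 FPKM in the knockout-labelled libraries, against 6.49, 5.45 and 6.61 FPKM in the controls. Its mean fell by 28.6% (log2 -0.41 ± 0.10, limma adjusted p = 0.0261), and the call did not hold after the length and GC adjustment (-0.26, 0.0640) or without 263, 265, 266 or 261 (0.0549 to 0.0903). Mcoln1, the calcium channel of the lysosome membrane, was at 12.2, 12.8 and 12.5 FPKM in the knockout-labelled libraries, against 14.8, 18.1 and 13.8 FPKM in the controls (log2 -0.29 ± 0.10, limma adjusted p = 0.0828). Without control 264 it passed (-0.36, 0.0351). Ctsb, the cysteine protease cathepsin B, was at 96.4, 94.6 and 90.7 FPKM in the knockout-labelled libraries, against 95.5, 87.6 and 108 FPKM in the controls. Its groups overlapped, and the sign of its difference of -0.04 ± 0.09 turned under median, trimmed mean and quantile scaling.

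Other genes of the pathway, from 7 lists, were read from the same fit. Of 138 listed genes 130 were tested, 49 fell (37.7%) and 1 rose, against 15.6% and 7.91% of all tested genes. After the length and GC adjustment 39 fell (30.0%) and 4 rose (3.08%), against 11.9% and 12.4% of all tested genes. Of 35 further lysosomal hydrolases 19 fell and 0 rose, with a median of -0.28. Dnase2a, the lysosomal DNase, averaged 49.3 ± 3.19 FPKM in the knockout-labelled libraries and 82.3 ± 3.56 FPKM in the controls (log2 -0.73 ± 0.07), and the sulfatase Arsa averaged 5.84 ± 0.417 FPKM in the knockout-labelled libraries and 10.1 ± 0.860 FPKM in the controls (-0.69 ± 0.08).

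Of 19 further lysosomal membrane genes 7 fell and 0 rose, with a median of -0.30, among them the potassium and proton channel Tmem175 (-0.59 ± 0.06), the cystine exporter Ctns (-0.58 ± 0.07) and Scarb2 (-0.42 ± 0.06), the receptor that carries glucocerebrosidase. Of 14 further selective autophagy receptors and regulators 6 fell and 0 rose, with a median of -0.28. The mitochondrial damage kinase Pink1 was at 44.3, 50.3 and 46.8 FPKM in the knockout-labelled libraries, against 87.4, 94.6 and 71.9 FPKM in the controls (log2 -0.83 ± 0.11, limma adjusted p = 0.00515). The ER-phagy receptors Calcoco1 (-0.70 ± 0.09) and Retreg1 (-0.58 ± 0.10) fell too. Of 23 further genes of initiation, membrane growth and fusion 6 fell and 0 rose, led by the WIPI relative Wdr45 (-0.56 ± 0.08), the fusion SNARE Vamp8 (-0.54 ± 0.09) and the tethering subunit Vps41 (-0.38 ± 0.06).

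The vacuolar ATPase, the proton pump that acidifies lysosomes, held the gene of these lists that rose with the values as deposited. Of its 20 tested subunits 6 fell and 1 rose, with a median of -0.15. After the length and GC adjustment 4 of the 20 fell and 2 rose, with a median of -0.07. Atp6v1b2 was at 87.3, 80.6 and 88.8 FPKM in the knockout-labelled libraries, against 68.4, 70.6 and 70.8 FPKM in the controls (log2 0.29 ± 0.06, limma adjusted p = 0.0222). Its paralog Atp6v1b1 fell, at 30.5, 31.4 and 32.4 FPKM in the knockout-labelled libraries, against 42.6, 40.2 and 38.7 FPKM in the controls (log2 -0.35 ± 0.06, limma adjusted p = 0.0110). Atp6v0e2 (-0.80 ± 0.12) and Atp6v0d1 (-0.33 ± 0.07) fell as well. Of 18 genes of nutrient sensing at the lysosome 5 fell and 0 rose, against 15.6% and 7.91% of all tested genes. The list median was -0.18. After the length and GC adjustment 3 of the 18 fell and 1 rose, against 11.9% and 12.4% of all tested genes. The 5 included the Ragulator subunits Lamtor4 (-0.55 ± 0.13) and Lamtor2 (-0.38 ± 0.09) and the leucine-sensor relative Sesn3 (-0.43 ± 0.09). When 1 library was left out, the call of Atp6v1b2 was lost in 4 of 6 fits, without 263, 266, 261 or 262 (limma adjusted p from 0.0507 to 0.0955). Those of Lamtor2 and Lamtor4 were lost without 263, 265, 266 or 261, and that of Sesn3 without 263, 265, 261 or 262, at adjusted p-values up to 0.101. That of Atp6v0d1 was lost without 263 or 266, and that of Atp6v1b1 without 263 (0.0522). The calls of Lamtor2 and Atp6v0d1 were lost after the length and GC adjustment (limma adjusted p = 0.0553 and 0.0908).

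**Figure D5:**
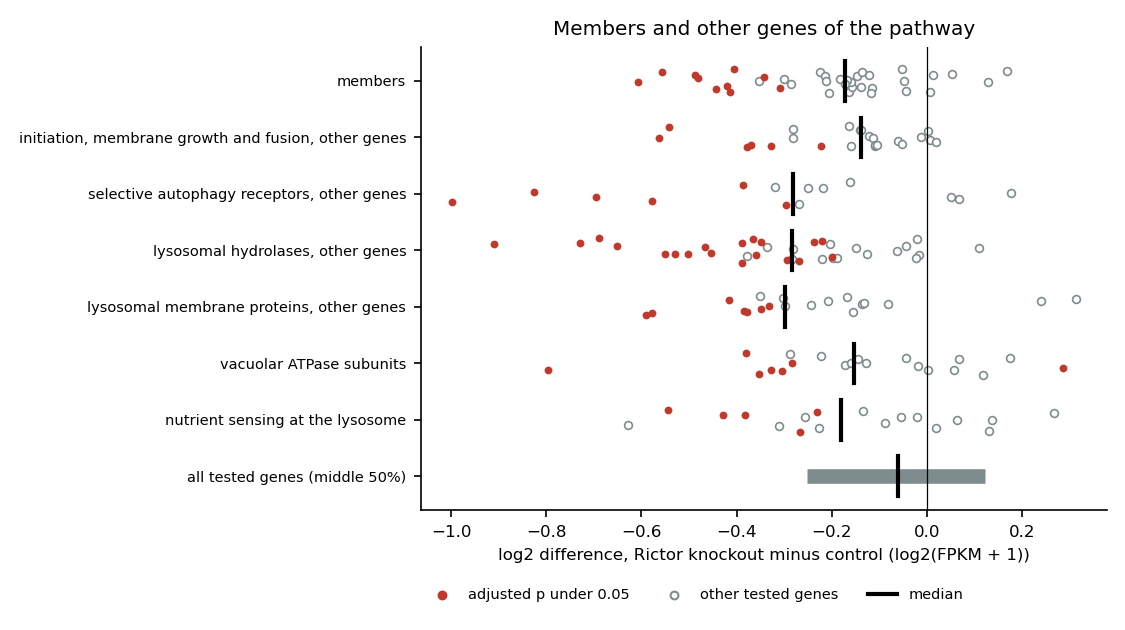
Log2 difference, knockout-labelled minus control, of each tested gene of the 37 and of 6 further lists with at least 3 tested genes, with red points at an adjusted p under 0.05, black bars at list medians and the middle 50% of all tested genes as a grey bar. List medians run from -0.14 to -0.30, against -0.06 for all tested genes, and 1 red point, Atp6v1b2, lies right of 0.

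Some markers of cell types other than keratinocytes also differed between the groups. Of 1 tested muscle marker and 2 tested adipocyte markers 0 were called. Fewer cells of a type and less RNA per cell cannot be told apart in bulk tissue. Of 7 tested myeloid and Langerhans markers 5 fell and 0 rose, and the 8 listed ones summed to 46.3 to 51.9 FPKM in the knockout-labelled libraries, against 68.5 to 85.4 FPKM in the controls, with Cd207 near 0. Of 5 melanocyte markers 4 fell, and they summed to 264 to 296 FPKM in the knockout-labelled libraries, against 351 to 437 FPKM in the controls. Of 4 tested fibroblast markers 2 rose, with sums of 124 to 159 FPKM in the knockout-labelled libraries, against 114 to 142 FPKM in the controls. The 5 erythroid markers had the lowest median of the marker lists, -0.77, with 5 of 5 below 0 and 0 called (limma; 3 had an unadjusted p under 0.05), and summed to 150 to 335 FPKM in the knockout-labelled libraries, against 291 to 484 FPKM in the controls. The part of these cells in the differences above was not tested.

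The split of directions over the whole table depended on scaling. Of all called genes 33.7% rose with the values as deposited. Scaling libraries to one median made it 47.7%, a trimmed mean 48.1%, quantiles 47.9%, and the length and GC adjustment 51.0%. With those the count of the 37 that fell was 7, 8, 9 and 7, and 0 rose in each. Of all tested genes 12.0%, 12.3%, 12.3% and 11.9% fell, in that order. After trimmed mean scaling the median of the 37 was -0.11, against -0.00472 for all. Without control 264, 14 of the 37 fell and 0 rose, against 16.8% and 11.2% of all tested genes (28.1% either way), with Ulk1, Atg13, Atg2a, Nbr1 and Mcoln1 gained and Map1lc3a lost.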

How the data were processed

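RNA was isolated from separated epidermis with a QIAGEN RNeasy Mini kit and made into Illumina libraries, per the labels' protocols. The authors deposited 1 table of FPKM with a column per library, made with CASAVA and Cufflinks on GRCm38, per the submitters' processing notes. The sources used here name no aligner, annotation, strandedness or RNA selection. GENCODE M21 matched 49109 of 49452 identifiers, and the highest row was kept where a symbol had several (66 rows left out). Summed FPKM ran from 609375 to 672925 per library. No counts were used: the commonest ratio of low values put depths within a factor of 1.21, and no counting error was derived.

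The 13500 genes with a group mean of 1 FPKM or more were tested with limma 3.58.1 in R 4.3.3 on log2(FPKM + 1), with an intensity trend, 3 libraries per group and no covariates. This scale understates changes of low genes. P-values are two-sided, with Benjamini-Hochberg adjustment across every gene tested and a threshold of 0.05. On simulated data for 13272 genes, 92% of 100 changes of 1 and 3% of 100 changes of 0.3 (log2) were recovered. Of 13072 unchanged genes 13 were called. The simulation changed a far smaller part of the genes than the 23.5% called here, and it raised low spreads. It therefore does not measure how often small differences are missed in these data. Named genes are the 37, Rictor, and up to 3 per direction with the smallest p of each further list (1 such gene is not reported here); Mitf, Tfec, Cd207 and keratins were named from the lists besides. Promoters came from RefSeq (GRCm38.p6), used as sequence only. The length and GC adjustment subtracts splines of exonic length and GC content per library. The genes, lists and tests were chosen with earlier results of these data known.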

Additional observations from a re-analysis of the deposited data

How the results depend on the processing

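Of the 10 genes that fell none changed sign under any alternative, Gabarapl1 and Atg12 passed in all 19, and 8 of the 10 passed in more than 10. These counts include the threshold of 0.10, which any called gene must pass. The count that fell was 10 of 37 as reported, 6 without a filter on low values and 23 with array weights. It was 6 with a term for sex read from Xist and Y-linked genes, which placed both sexes in each group. In that order 27.0%, 16.2%, 62.2% and 16.2% of the 37 fell, against 15.6%, 5.58%, 29.2% and 9.02% of all tested genes. The sex term ended the calls of Map1lc3a, Gabarapl2, Atg14 and Lamp2. Leaving out 1 library gave 2 to 14 fallen genes, the lowest without 263, and 0 risen in each fit. That was 2 (5.41%) without 263, 3 (8.11%) without 266, 4 (10.8%) without 265 and 5 (13.5%) without control 261, against 7.30%, 7.42%, 8.62% and 9.55% of all tested genes, so near or below the share of all genes without 263 or 266. Over all genes tested, 3169 were called, 6272 with array weights and 1852 with a sex term, and 1462 to 3784 when 1 library was left out. Pseudocounts of 0.1 and 5, a minimum of 5 FPKM, other scalings, no trend and a threshold of 0.10 kept the count that fell within 1.5 times (7 to 15). The 15 came with the threshold of 0.10 (40.5%, against 22.1% of all tested genes). Length adjustment without control 264, added after seeing the data, gave 11 (29.7%, against 12.3% of all tested genes). Fits that left out 1 library had fewer residual degrees of freedom, and why their counts differed was not tested. Upstream bases alone held E-boxes in 5 genes, without Atg14. No paired analysis was made, because the labels give nothing that pairs the libraries. Depth limits were not computed, since no counts were used.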
